A study of Mus musculus with 23 samples.

Results

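The genes described here are 10 genes of TGF-beta and activin signalling: the ligand genes Tgfb1, Tgfb2 and Tgfb3, the receptor genes Tgfbr1, Tgfbr2 and Tgfbr3, the activin subunit genes Inhba and Inhbb, the activin antagonist Fst and the inhibitory SMAD gene Smad7. They were chosen by symbol, from Ensembl identifiers matched to symbols on GRCm38. All 10 are among the 43068 genes listed for the crush experiment and the 22880 genes listed for the inducible mutants. RNA sequencing of mouse sciatic nerves (SNs) gave 23 libraries in 7 groups.

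In the crush experiment, wild-type C57BL/6J males aged 2 months had one SN crushed at the sciatic notch. The crushed group (n = 4) is nerve distal to the injury at 3 days post crush (3 dpc), the contralateral group (n = 4) is the noninjured nerve of the other side at 3 dpc, and the uncrushed group (n = 3) is labelled as a surgery control. By the study's methods the contralateral nerves came from the injured mice, so crushed and contralateral nerves share mice, and the labels do not state which nerves belong together. In the inducible knockout (iKO) experiment, Dicer iKO mice (n = 3) were P0-CreERT2 -/+ Dicer1 flox/flox and Dgcr8 iKO mice (n = 3) were P0-CreERT2 -/+ Dgcr8 flox/flox. Their controls (n = 3 each) were P0-CreERT2 -/- with the same floxed alleles. All iKO and control mice received tamoxifen on 5 consecutive days at 8 to 10 weeks of age, carried alleles backcrossed to C57BL/6J, were of either sex and were analysed at 3 months post tamoxifen (3 mpT). The Cre was active in myelinating Schwann cells (SCs), so other cells of these nerves kept both floxed alleles. The mutant mice were taken from those with visible changes in the nerve, since not every induced mouse had them. Dicer and Dgcr8 are needed to make microRNAs, and the comparisons address what changes in the adult nerve after injury and after SCs lose that pathway.

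TGF-beta ligands are secreted in a latent form and, once released, bind the type II receptor Tgfbr2, which then activates the type I receptor Tgfbr1. The activated type I receptor phosphorylates Smad2 and Smad3, which enter the nucleus with Smad4, while Smad7 is itself induced by the pathway and blocks the type I receptor. Activins are dimers of the subunits that Inhba and Inhbb encode, signal through the same Smad2 and Smad3 by their own receptors, and are sequestered by follistatin, the product of Fst. In peripheral nerve, TGF-beta is known to act on SCs during development and after injury, and on the macrophages and fibroblasts of the nerve.

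Total counts per library ranged from 5594859 to 12806066, so a count of 3, taken as the detection floor, corresponded to 0.234 to 0.536 CPM, the count scaled to library size after TMM normalization within each experiment. Floors cover counting error only. Markers of SCs were high in all groups, but their summed level over 9 genes was 2116 to 3235 CPM in crushed nerves against 36488 to 55607 CPM in the other nerves of that experiment, with 7 of 9 called lower against uncrushed and 8 of 9 against contralateral nerves by the test given below. The sum was also lower in the mutants, at 22506 to 27561 CPM in Dicer iKO nerves against 28173 to 47161 CPM in controls, with 0 of 9 called, and at 14767 to 28573 CPM in Dgcr8 iKO nerves against 42653 to 46462 CPM, with 4 of 9 called lower. These ranges did not overlap in either mutant. Over all genes tested, 21.1% were called lower against uncrushed and 13.6% against contralateral nerves. In Dicer iKO nerves 1.64% were called lower and in Dgcr8 iKO nerves 6.99%. The part of SC content in the values below was not tested. The summed level of 9 macrophage markers was 885 to 1989 CPM in crushed nerves and 114 to 212 CPM in contralateral and uncrushed nerves. It was 3751 to 6718 CPM in Dicer iKO and 2457 to 5799 CPM in Dgcr8 iKO nerves, against 330 to 1071 CPM in Dicer controls and 326 to 380 CPM in Dgcr8 controls. In bulk nerve, fewer cells of a type and less RNA per cell cannot be told apart. Whole-gene counts of the targeted genes changed little: Dicer1 had a log2 fold change of -0.11 (adjusted p = 0.357) in Dicer iKO nerves and Dgcr8 of 0.22 (adjusted p = 0.233) in Dgcr8 iKO nerves by edgeR's quasi-likelihood test, so these counts do not check the labels.

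Crushed nerves had 5 of the 10 genes changed against uncrushed nerves. Tgfb1, Inhba, Smad7 and Tgfbr1 rose and Fst fell. To be called, a gene had to change 2-fold or more and have an adjusted p of 0.05 or less in edgeR's quasi-likelihood test, with the adjustment made over every gene tested. The 4 genes called higher compare with 15.3% of the 17433 genes tested, and the 1 gene called lower with 21.1%. Against contralateral nerves, 4 genes rose (Tgfb1, Inhba, Inhbb and Smad7), against 14.6% of the 16667 genes tested, and 3 fell (Fst, Tgfbr3 and Tgfb3), against 13.6%. The same 4 crushed nerves serve in both comparisons. By the adjusted p alone, 4 of the 10 genes were higher and 3 lower against uncrushed nerves, where 33.8% and 33.4% of all genes (67.2% in all) were, and 5 were higher and 4 lower against contralateral nerves, where 33.5% and 32.9% were. The 10 genes had a median log2 fold change of 0.49 with uncrushed and 0.35 with contralateral nerves as the control, beside -0.03 and -0.06 over all genes tested.

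Dgcr8 iKO nerves had 5 of the 9 tested genes higher (Tgfbr1, Tgfb2, Tgfb1, Inhbb and Fst), against 13.4% of the 13252 genes tested, and 0 lower, against 6.99% (20.4% in either direction). Dicer iKO nerves had 3 of 9 higher (Tgfb1, Tgfbr1 and Fst), against 7.37% of the 13045 genes tested, and 0 lower, against 1.64%. By the adjusted p alone, 6 of the 9 genes were higher and 0 lower in Dgcr8 iKO nerves, where 23.9% and 20.6% of all genes (44.5% in all) were. In Dicer iKO nerves 3 were higher and 1, Tgfb3, was lower, where 12.3% and 8.88% of all genes were. The median log2 fold change of the 9 genes was 1.58 in Dgcr8 iKO and 0.07 in Dicer iKO nerves, beside -0.01 over all genes tested in each. Inhba had too few counts to be tested in the mutants.

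**Figure D1:**
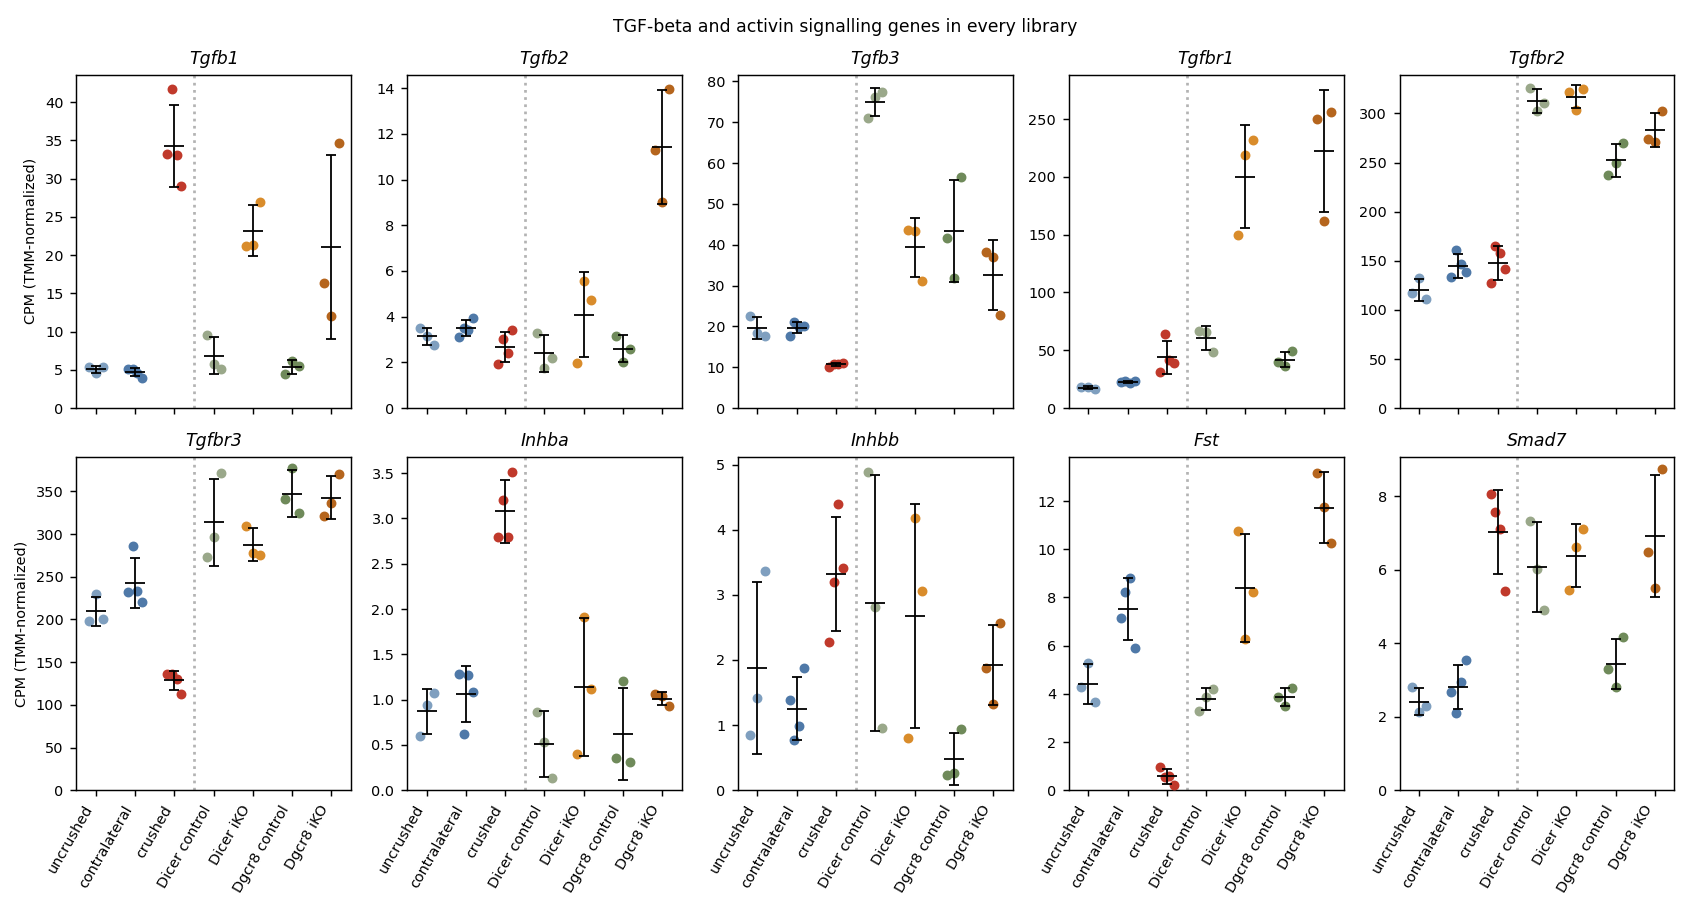
Level of each of the 10 genes in every library, in TMM-normalized CPM (vertical axis, linear from 0, a scale per gene), by group; points are libraries, black bars are the mean ± SD and the dotted line separates the experiments, which were normalized separately. Tgfb1 in the 4 crushed nerves sits between 29.1 and 41.7 CPM, above the 7 uninjured nerves, and Fst in crushed nerves sits at 0.96 CPM or below.

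Per transcript length, Tgfbr3 and Tgfbr2 had the highest mean levels of the 10 genes in each of the 7 groups. On the scale of deposited FPKM values summed per gene and rescaled by TMM, Tgfbr3 in uncrushed nerves had a level of 59.9 ± 7.2 (SD, n = 3) and Tgfbr2 of 26.1 ± 2.41, without overlap. Tgfb3 (5.98 ± 0.813) and Tgfbr1 (5.63 ± 0.292) came next and overlapped each other. Tgfb1 (2.95 ± 0.643) and Fst (1.99 ± 0.368) overlapped too, and Smad7, Tgfb2, Inhba and Inhbb lay between 1.01 and 0.457, each overlapping its neighbour. In crushed nerves this order differed: Tgfbr3 (33 ± 4.22, n = 4) and Tgfbr2 (31.9 ± 3.67) overlapped, Tgfb1 (17.7 ± 2.27) and Tgfbr1 (13.1 ± 4.04) followed as an overlapping pair, and Fst (0.258 ± 0.144) was last, overlapping Tgfb2. In Dgcr8 iKO nerves Tgfbr1 stood at 45.1 ± 10.7 on this scale, below Tgfbr2 (62.1 ± 3.78) and above Tgfb1 (11.3 ± 6), with no overlap on either side.

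Tgfb1 (chr7:25687002-25705077, plus strand) encodes the TGF-beta 1 ligand. Uncrushed nerves had 5.38, 4.59 and 5.34 CPM, contralateral nerves 5.05, 5.06, 4.60 and 3.94 CPM, and crushed nerves 33.2, 41.7, 33.2 and 29.1 CPM. The lowest crushed nerve was over 5-fold above the highest uninjured one, with a fitted log2 fold change of 2.62 (SE 0.14, adjusted p = 1.32e-08) relative to uncrushed and of 2.73 (SE 0.12, adjusted p = 1.36e-10) relative to contralateral nerves. Tgfb1 also rose in both mutants. Dicer control nerves had 9.62, 5.75 and 5.16 CPM and Dicer iKO nerves 21.2, 21.4 and 27 CPM (log2 fold change 1.77, SE 0.25, adjusted p = 0.00485). Dgcr8 control nerves had 4.47, 6.17 and 5.51 CPM and Dgcr8 iKO nerves 16.4, 12.1 and 34.7 CPM (log2 fold change 1.96, SE 0.36, adjusted p = 0.00117). The groups did not overlap in either mutant, and replicate 3 of the Dgcr8 iKO group was the highest of the mutant nerves. The macrophage markers moved with Tgfb1: 9 of 9 were called higher in crushed nerves against each control, 6 of 9 in Dicer iKO and 7 of 9 in Dgcr8 iKO nerves. Over all genes tested 15.3% were called higher against uncrushed and 14.6% against contralateral nerves, 7.37% in Dicer iKO and 13.4% in Dgcr8 iKO nerves. No macrophage marker of the list was at 0 in any group. Dicer control replicate 1 had both the highest Tgfb1 value and the highest macrophage sum of the control nerves. The part of these cells in the Tgfb1 change was not tested.

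Tgfb2 (chr1:186622792-186705989, minus strand) encodes TGF-beta 2 and was called in 1 comparison. Dgcr8 iKO nerves had 11.3, 9.01 and 14 CPM and their controls 3.18, 2.01 and 2.60 CPM, without overlap (log2 fold change 2.12, SE 0.26, adjusted p = 9.7e-05). Dicer iKO nerves had 1.99, 5.56 and 4.73 CPM against 3.30, 1.74 and 2.17 CPM, and these groups overlapped (log2 fold change 0.76, SE 0.45, adjusted p = 0.265). The Dgcr8 effect exceeded the Dicer effect by 1.37 on the log2 scale (SE 0.52), which the test of the difference itself did not call (unadjusted p = 0.0209, adjusted p = 0.289 over 13552 genes, edgeR's quasi-likelihood test). Crushed nerves had 1.92, 3.02, 2.40 and 3.41 CPM, inside or below the range of 2.75 to 3.94 CPM of uninjured nerves, and no call was made (log2 fold changes -0.36 and -0.52, adjusted p = 0.231 and 0.047 with uncrushed and contralateral controls, both under 2-fold).

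Tgfb3 (chr12:86056745-86079041, minus strand), which encodes TGF-beta 3, went the other way. Crushed nerves had 10.1, 10.8, 10.8 and 11.1 CPM, while contralateral nerves had 17.7, 21, 19.9 and 20.1 CPM and uncrushed nerves 22.6, 18.5 and 17.6 CPM. The crushed nerves lay below all 7 uninjured nerves. Against contralateral nerves Tgfb3 fell by 1.02 on the log2 scale (SE 0.10, adjusted p = 6.46e-07), and against uncrushed nerves its log2 fold change of -0.998 (SE 0.12, adjusted p = 2e-05) was just under the 2-fold limit. Dicer iKO nerves had 43.6, 43.5 and 31.0 CPM against 71.1, 76.2 and 77.4 CPM in controls, without overlap (log2 fold change -0.92, SE 0.15, adjusted p = 0.00646, under 2-fold). Dgcr8 iKO nerves, at 38.1, 37.1 and 22.8 CPM, overlapped their controls at 41.8, 31.9 and 56.6 CPM (log2 fold change -0.42, SE 0.23, adjusted p = 0.162). The call against contralateral nerves rested on the 2-fold limit: without contralateral replicate 2 the log2 fold change was -0.97.

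The composition of the TGF-beta ligand transcripts also differed between the groups. By TPM, which scales for transcript length within a library, Tgfb3 made up 60.7% ± 2.98 (SD, n = 3) of the 3 ligand genes in uncrushed and 61.2% ± 5.07 (n = 4) in contralateral nerves, and Tgfb1 30.2% ± 4.6 and 30.1% ± 4.75. In crushed nerves the Tgfb1 share was 83.3, 83.9, 81.4 and 78.7%, above the highest share of an uninjured nerve (34.2%), and the Tgfb3 share was 15.2% ± 1.72. In Dicer iKO nerves the Tgfb1 share was 43.1, 48.6 and 57.7% against 21.6, 12.9 and 9.4% in controls. In Dgcr8 iKO nerves it was 38.7, 33.1 and 63.9% against 16.7, 22.6 and 16.0% in controls. The shares did not overlap in either mutant. The experiments differed in transcript list and, by the labels, in library kit, so shares were not compared between them.

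**Figure D2:**
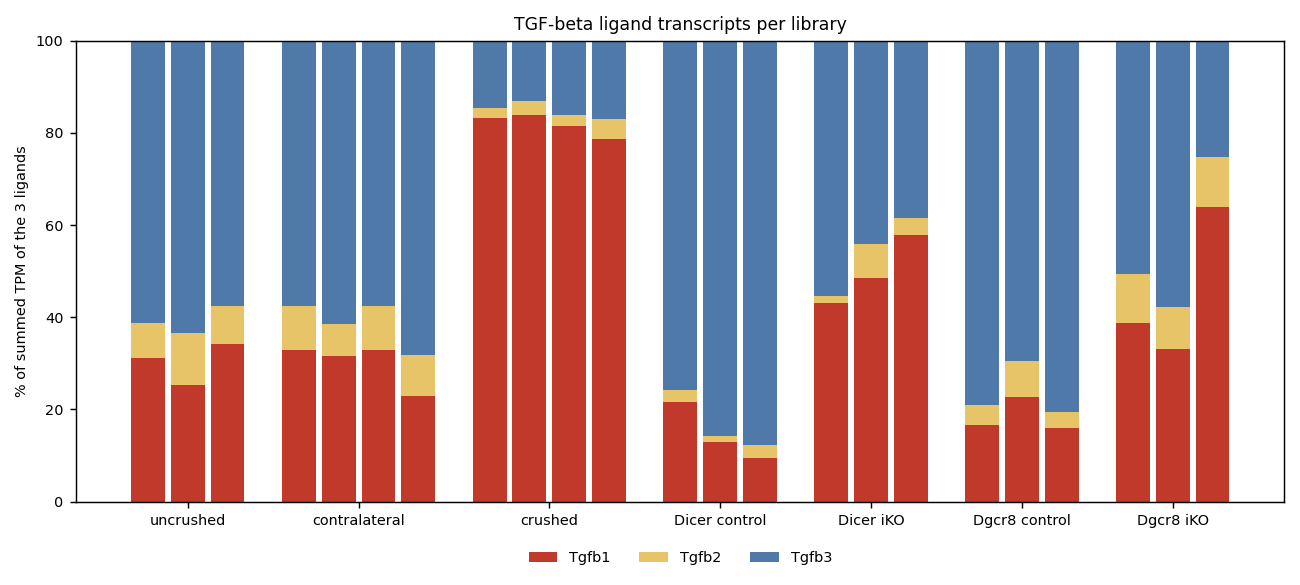
Share of Tgfb1 (red), Tgfb2 (yellow) and Tgfb3 (blue) in the summed TPM of the 3 genes (vertical axis, percent), 1 bar per library, by group. Tgfb1 takes 78.7 to 83.9% in crushed nerves and at most 34.2% in the uninjured nerves of that experiment. In the iKO experiment it takes 33.1 to 63.9% in the 6 mutant nerves and at most 22.6% in control nerves.

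Tgfbr1 (chr4:47353222-47414931, plus strand) encodes the type I receptor kinase. It rose about 5-fold in Dgcr8 iKO nerves, to 250, 162 and 256 CPM from 40.1, 36.6 and 49.1 CPM (log2 fold change 2.40, SE 0.19, adjusted p = 6.87e-06). It rose in Dicer iKO nerves to 150, 219 and 232 CPM from 67.0, 65.8 and 48.6 CPM (log2 fold change 1.73, SE 0.20, adjusted p = 0.00271). All 6 mutant nerves lay above all 6 control nerves, by more than 2-fold at the nearest. The difference between the 2 mutant effects was 0.68 on the log2 scale (SE 0.29), with an unadjusted p of 0.0382 and an adjusted p of 0.34 by edgeR's quasi-likelihood test. Crushed nerves had 31.3, 64.3, 41.4 and 38.6 CPM, uncrushed nerves 18, 18.6 and 16.5 CPM and contralateral nerves 22.6, 23.3, 21.8 and 23.2 CPM. The crushed nerves were above all uninjured nerves, and the log2 fold change was 1.18 (SE 0.20, adjusted p = 0.000213) relative to uncrushed and 0.81 (SE 0.16, adjusted p = 0.000465, under 2-fold) relative to contralateral nerves. Crushed replicate 2 was the highest, and without it the log2 fold change against uncrushed nerves was 0.94, under 2-fold. Nerves ranked by Tgfbr1 and by the macrophage marker sum fell in the same order within the crushed, Dicer iKO, Dgcr8 iKO and Dicer control groups. They did not within the uncrushed, contralateral and Dgcr8 control groups. The part of macrophages in the Tgfbr1 change was not tested.

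Tgfbr2 (chr9:116084293-116175360, minus strand), the type II receptor, was called in no comparison. Its range was 127 to 165 CPM in crushed nerves, 133 to 161 CPM in contralateral and 111 to 133 CPM in uncrushed nerves, and 271 to 326 CPM in 9 of the 12 nerves of the iKO experiment, with the Dgcr8 controls lower at 237 to 270 CPM. The log2 fold changes were 0.17 (SE 0.11), -0.11 (SE 0.09), 0.03 (SE 0.09) and 0.16 (SE 0.13) for crushed against uncrushed, crushed against contralateral, Dicer iKO and Dgcr8 iKO. The share of Tgfbr1 in the summed TPM of Tgfbr1, Tgfbr2 and Tgfbr3 was 6.25% ± 0.786 in Dgcr8 controls and 24.1% ± 3.91 in Dgcr8 iKO nerves, 8.47% ± 2.13 and 23.1% ± 4.59 in the Dicer groups, and 6.26% ± 0.891 in uncrushed and 16.7% ± 3.7 in crushed nerves.

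Tgfbr3 (chr5:107106570-107289629, minus strand) encodes betaglycan, a co-receptor that presents TGF-beta ligands and also binds inhibin. Crushed nerves had 136, 136, 130 and 112 CPM against 232, 286, 234 and 220 CPM in contralateral and 198, 229 and 201 CPM in uncrushed nerves. No crushed nerve reached the uninjured range. Tgfbr3 fell by 1.06 on the log2 scale (SE 0.09, adjusted p = 1.68e-07) against contralateral nerves, and its log2 fold change against uncrushed nerves was -0.83 (SE 0.10, adjusted p = 1.08e-05, under 2-fold). Without contralateral replicate 2, the highest, the first value was -0.95 and under 2-fold. In the iKO experiment all 12 nerves lay between 273 and 377 CPM and mutants overlapped their controls, with log2 fold changes of -0.12 (SE 0.14) in Dicer iKO and -0.03 (SE 0.14) in Dgcr8 iKO nerves.

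The mutants were made to lose microRNA biogenesis in SCs, and no microRNA was measured here. The longest annotated 3′UTR of each of the 10 genes (GENCODE M21, GRCm38) was searched for matches to bases 2 to 8 of 7 microRNAs. The study names these as abundant both in newborn and in adult SN (let-7f, miR-181a, miR-10a, miR-10b, miR-26a, miR-27b and miR-22). Of them, miR-10a and miR-10b share 1 seed, with the match ACAGGGT. The study's text does not give the arm of miR-26a, miR-27b or miR-22, and the arm of each was chosen for this search. Matches were found for 5 of the 7 microRNAs. Their mature sequences from RefSeq (GRCm38.p6) are shown because the matches are defined by them, with the seed in capitals:
let-7f-5p: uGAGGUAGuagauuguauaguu
miR-181a-5p: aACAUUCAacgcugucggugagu
miR-26a-5p: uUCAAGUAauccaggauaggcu
miR-27b-3p: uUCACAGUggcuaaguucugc
miR-22-3p: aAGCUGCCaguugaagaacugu

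A match to let-7f (CTACCTC, on the transcript strand) was present in the 3′UTR of Tgfbr1 and of Tgfbr3, and in 8.99% of 20890 3′UTRs. Among 3′UTRs of 0.8 to 1.2 times their length, 22.8% held it for Tgfbr1 and 15.7% for Tgfbr3. Tgfbr1 held 2 matches to miR-181a (TGAATGT, in 16.4% of all 3′UTRs and 39.3% of those of like length). These 4 sites were chosen for print after it was seen that the genes that carry them moved differently in the mutants. They are shown with the match in capitals and followed in each by an A:
Tgfbr1, let-7f, chr4:47410829-47410851, plus strand: ggaggctggttgttCTACCTCac
Tgfbr1, miR-181a, chr4:47411179-47411201, plus strand: tccttggttcacttTGAATGTac
Tgfbr1, miR-181a, chr4:47411927-47411949, plus strand: agatatagttaataTGAATGTac
Tgfbr3, let-7f, chr5:107106959-107106981, minus strand: tttttgtactgtaaCTACCTCat

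The let-7f match began at base 66 of the 4154 bases of the Tgfbr1 3′UTR and at base 2672 of the 3069 bases of the Tgfbr3 3′UTR. Tgfbr1 was higher in both mutants and Tgfbr3 in neither, and whether any site has a part in this was not tested. A match to miR-27b (ACTGTGA, in 16% of all 3′UTRs) lay in Tgfbr1, Tgfbr3 and Tgfbr2, of which Tgfbr3 and Tgfbr2 were not called in either mutant. It was followed by an A in Tgfbr3 and not in Tgfbr1 or Tgfbr2. Among 3′UTRs of like length it was present in 39.9% for Tgfbr1, 30.2% for Tgfbr3 and 47.7% for Tgfbr2. A match to miR-22 (GGCAGCT, in 12.7% of all 3′UTRs) lay in Tgfbr1 and Tgfbr2, where 29.4% and 38.8% of those of like length held it. The miR-22 match was followed by an A in Tgfbr2 and not in Tgfbr1. A match to miR-26a (TACTTGA, in 9.69%) lay in Inhba and Inhbb, against 28.8% and 12.3% of those of like length. Further miR-181a matches lay in Tgfbr3, Inhba and Smad7, against 32%, 41.5% and 20.5%. Tgfb1, Tgfb2 and Fst, which were higher in at least 1 mutant, held no match to any of the 7 seeds in the window searched, and neither did Tgfb3. The Tgfb1 window had only 135 bases, and each match was in 0.287 to 2.2% of 3′UTRs of like length. Absence is thus usual at that length. For the other windows each match was in 14.3 to 28.9% (Tgfb2), 9.95 to 19.7% (Fst) and 6.82 to 14.8% (Tgfb3).

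For Tgfbr2, Inhba and Fst the window searched was not that of the transcript as quantified. The searched Tgfbr2 transcript, ENSMUST00000061101, is 8092 bases long in GENCODE M21 and 4785 in the deposited tables, and its matches began at bases 2802 and 5744 of a 3′UTR of 6085 bases, so they may lie outside what was quantified. The searched Inhba transcript, ENSMUST00000042603, is 6390 bases long in GENCODE M21 and 1957 in the deposited tables, and its matches, at bases 1015 and 1652 of the 3′UTR, may lie outside it as well. That transcript held 0% of the Inhba counts in Dicer control, Dgcr8 control and Dgcr8 iKO nerves. The Fst window came from ENSMUST00000223640, while every Fst count came from ENSMUST00000022287, which is 2337 bases long in the deposited tables and 1851 in GENCODE M21. The transcripts searched for Tgfbr1 and Tgfbr3 had the same length in both. The miR-10 match, in 12.5% of all 3′UTRs, was in none of the 10 genes. A match describes letters only, and only the transcript strand was searched.

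Inhba (chr13:16011851-16031621, plus strand) encodes the subunit of activin A. Crushed nerves had 2.80, 3.20, 2.80 and 3.51 CPM, or 28 to 36 counts. Uncrushed nerves had 0.60, 0.94 and 1.07 CPM and contralateral nerves 1.29, 0.62, 1.27 and 1.08 CPM, or 7 to 14 counts. The crushed nerves were above all uninjured nerves, with log2 fold changes of 1.75 (SE 0.31, adjusted p = 0.000337) and 1.41 (SE 0.26, adjusted p = 0.000273). In the iKO experiment Inhba had 1 to 11 counts per library, 0.136 to 1.91 CPM, and the mutants overlapped their controls.

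Inhbb (chr1:119415465-119422248, minus strand) encodes the subunit of activin B. Crushed nerves had 2.27, 3.20, 4.39 and 3.41 CPM and contralateral nerves 1.38, 0.778, 0.979 and 1.87 CPM, without overlap (log2 fold change 1.28, SE 0.30, adjusted p = 0.00159). Uncrushed nerves had 0.854, 1.41 and 3.36 CPM, and replicate 3 lay within the crushed range (log2 fold change 0.81, SE 0.41, adjusted p = 0.0957). Without that library the log2 fold change was 1.48 and was called (adjusted p = 0.0055). Dgcr8 iKO nerves had 1.88, 1.33 and 2.56 CPM against 0.235, 0.268 and 0.935 CPM in controls, of which 2 libraries held 2 counts each, under the floor. The groups did not overlap (log2 fold change 1.89, SE 0.56, adjusted p = 0.0173). With 1 library left out the log2 fold change ranged from 1.57 to 2.84, the highest without Dgcr8 control replicate 3, and the call was lost without Dgcr8 control replicate 1 (adjusted p = 0.0753), Dgcr8 control replicate 2 (adjusted p = 0.0616) or Dgcr8 iKO replicate 3 (adjusted p = 0.062). It was also lost with all groups of the experiment in 1 fit (adjusted p = 0.0566). Dicer iKO nerves at 0.796, 4.17 and 3.06 CPM and their controls at 4.88, 2.81 and 0.95 CPM spread over the same range (log2 fold change -0.13, SE 0.69). The difference between the mutant effects, 2.03 on the log2 scale (SE 0.99), had an unadjusted p of 0.0602 in edgeR's test.

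Fst (chr13:114452290-114458951, minus strand), which encodes follistatin, moved in opposite directions in the 2 experiments. Crushed nerves had 0.962, 0.534, 0.599 and 0.201 CPM, or 11, 6, 6 and 2 counts, the last under the floor. Contralateral nerves had 7.17, 8.25, 8.81 and 5.91 CPM and uncrushed nerves 4.27, 5.29 and 3.66 CPM. Every uninjured nerve was above every crushed nerve, and Fst fell by 3.80 on the log2 scale against contralateral (SE 0.28, adjusted p = 2.14e-08) and by 3.02 against uncrushed nerves (SE 0.35, adjusted p = 1.09e-05).

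In the mutants Fst was higher. Dgcr8 iKO nerves had 13.2, 11.8 and 10.2 CPM against 3.88, 3.48 and 4.26 CPM in controls (log2 fold change 1.58, SE 0.21, adjusted p = 0.000147). Dicer iKO nerves had 10.7, 6.26 and 8.21 CPM against 3.30, 3.88 and 4.21 CPM (log2 fold change 1.16, SE 0.27, adjusted p = 0.0223). The groups did not overlap in either mutant. The Dicer call was lost without Dicer iKO replicate 1 (log2 fold change 0.94), Dicer iKO replicate 3 (adjusted p = 0.0813) or Dicer control replicate 2 (adjusted p = 0.0804).

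Smad7 (chromosome 18), the inhibitory SMAD that the pathway itself induces, stood at 8.05, 7.56, 7.09 and 5.42 CPM in crushed nerves, 2.82, 2.12 and 2.29 CPM in uncrushed and 2.66, 2.10, 2.94 and 3.55 CPM in contralateral nerves. All crushed nerves were above all uninjured nerves, with log2 fold changes of 1.40 (SE 0.21, adjusted p = 8.96e-05) and 1.2 (SE 0.18, adjusted p = 4.94e-05). Dgcr8 iKO nerves had 6.47, 5.50 and 8.74 CPM against 3.29, 2.81 and 4.16 CPM, without overlap, and the log2 fold change of 0.99 (SE 0.27, adjusted p = 0.012) was just under 2-fold; without Dgcr8 control replicate 3 it was 1.15 and called. Dicer iKO nerves had 5.44, 6.61 and 7.10 CPM and their controls 7.32, 6.02 and 4.89 CPM, overlapping throughout (log2 fold change 0.07, SE 0.24). The Dgcr8 effect exceeded the Dicer effect by 0.92 (SE 0.36, unadjusted p = 0.0223, adjusted p = 0.294, edgeR's quasi-likelihood test).

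**Figure D3:**
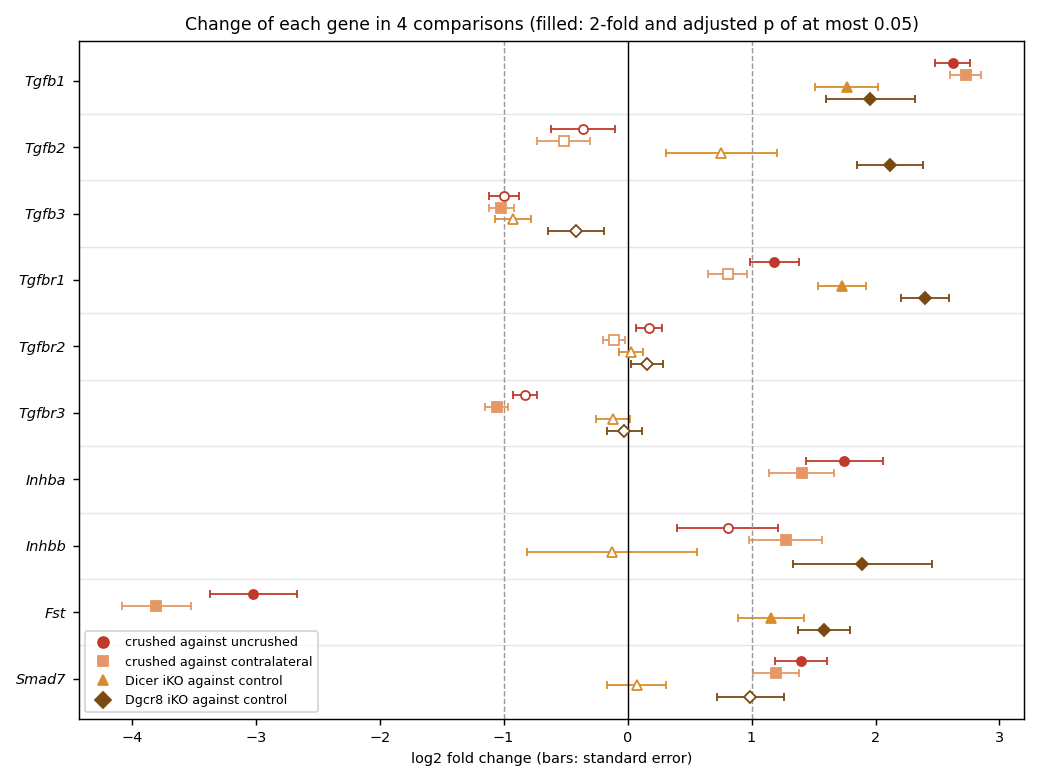
Log2 fold change (horizontal axis) of each gene in 4 comparisons, with bars of 1 standard error; dashed lines mark a 2-fold change and filled symbols pass both limits of the call. Tgfb1 lies right of the 2-fold line in all 4 comparisons, Tgfbr2 lies near 0 in all 4, and Fst lies at -3.80 and -3.02 after crush and at 1.16 and 1.58 in the mutants.

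Contralateral and uncrushed nerves were compared to see whether the uninjured side differed from nerves of the surgery controls. None of the 10 genes was called (0 of 17722 genes over the whole list, 0%, by edgeR's quasi-likelihood test, with 3165 genes at an unadjusted p under 0.05; DESeq2 called 31 and edgeR's exact test 163). Values of Fst were higher in contralateral nerves without overlap (log2 fold change 0.69, SE 0.19, unadjusted p = 0.00353, adjusted p = 0.136). So were those of Tgfbr1 (0.28, SE 0.09, adjusted p = 0.16) and Tgfbr2 (0.19, SE 0.09, adjusted p = 0.284). How many of all genes separate in this way was not counted. The larger fold change of Fst and the smaller one of Tgfbr1 against contralateral than against uncrushed nerves go with these control levels.

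Between the mutants, the test of the Dgcr8 effect minus the Dicer effect called 2 of 13552 genes at an adjusted p of at most 0.05 (0.0148%), 1 in each direction (0.00738%), and 0 of the 9 genes tested here; 1861 genes had an unadjusted p under 0.05 and DESeq2 called 240. Without Dicer control replicate 3 the count was 401, and 0 of the 9 genes in that fit too. The adjusted p of these 9 genes ranged from 0.289 for Tgfb2 to 0.894 for Tgfb1, and an adjusted p above the threshold does not show that the effects were equal.

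Expression of other genes of the pathway was examined in lists of known roles. The counts that follow are of genes called by both limits. Of the genes for latent TGF-beta storage and release, 10 of 15 tested were higher and 0 lower in crushed nerves against each control, where 15.3% of all genes tested were higher against uncrushed and 14.6% against contralateral nerves. The medians on the log2 scale were 1.36 and 1.21. In Dgcr8 iKO nerves 9 of 15 were higher (median 1.29, with 13.4% of all genes higher) and in Dicer iKO nerves 4 of 15 (median 0.82, with 7.37% of all genes higher), with 0 lower in each. Thbs1, whose product thrombospondin 1 can release TGF-beta from its latent complex, had log2 fold changes of 3.71 and 3.46 in crushed nerves, 1.54 in Dicer iKO and 2.46 in Dgcr8 iKO nerves. Mmp14, a membrane-bound metalloproteinase, had 2.76, 2.47, 1.10 and 2.46, and Nrros, which anchors latent TGF-beta on myeloid cells, had 2.48, 2.40, 1.29 and 1.53, in the same order. Emilin1 (2.55 and 2.27 after crush, 1.77 in Dgcr8 iKO) and Bgn (2.22 in Dgcr8 iKO) were also among the largest changes. Itgav, the integrin chain shared by several TGF-beta activating integrins, was called in none of the 4 comparisons (-0.26 to 0.28). Itgb8, another integrin gene of the list, rose after crush (1.92 and 1.79) and in Dgcr8 iKO nerves (1.29). In Dicer iKO nerves Itgb8 was at 0.87, under 2-fold.

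Of the other ligands and antagonists, most were too low to test. Gdf11, an activin-like ligand, rose in crushed nerves (log2 fold changes 1.5 and 1.55) and in Dgcr8 iKO nerves (1.81), and Fstl1 rose in the same comparisons (1.22, 1.40 and 1.80). In Dicer iKO nerves neither was called: Fstl1 was at 0.995, just under 2-fold, and Gdf11 at 0.66. Fstl3, a follistatin-like antagonist of activin, fell in crushed nerves (-1.21 and -1.08) and was not called in either mutant (0.30 and 0.49). Of 11 other receptor genes, with uncrushed controls 2 were higher and 3 lower, and with contralateral controls 1 was higher and 1 lower. Over all genes tested 15.3% were higher and 21.1% lower in the first comparison and 14.6% and 13.6% in the second, and the receptor counts lay near these shares. Acvr2b, a type II activin receptor, fell in crushed nerves (-2.08 and -2.33) and in Dgcr8 iKO nerves (-1.07), and Acvr1, a type I receptor, rose in crushed nerves (1.34 and 1.36). In Dicer iKO nerves 1 of 10 was higher, the pseudoreceptor Bambi (1.16), where 7.37% of all genes were higher.

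Of 17 SMADs and co-regulators, 4 were higher against each control after crush, with 2 lower against uncrushed and 3 lower against contralateral nerves. Over all genes 15.3% and 14.6% were higher and 21.1% and 13.6% lower, so the lower count was below the share of all genes against uncrushed nerves and near it against contralateral nerves. In each mutant 3 were higher and 0 lower, of 17 tested in Dicer iKO and 16 in Dgcr8 iKO nerves, where 7.37% and 13.4% of all genes were higher, and in all 4 comparisons the higher genes included Pmepa1, Skil and Tgif1. Each of these encodes a negative regulator of SMAD signalling. Their log2 fold changes against uncrushed nerves, in Dicer iKO and in Dgcr8 iKO nerves were 2.67, 1.15 and 1.98 for Pmepa1, 2.23, 1.31 and 2.27 for Skil, and 1.95, 1.23 and 1.19 for Tgif1. Tgif2, of the same list, went the other way and was called lower against contralateral nerves (-1.37). Smad3 rose after crush (1.44 and 1.03), while Smad2 was not called in any of the 4 comparisons (-0.22 to 0.13).

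Of 14 genes known to respond to TGF-beta in other cells, 7 were higher and 3 lower against uncrushed, 8 and 3 against contralateral nerves, 7 and 1 in Dgcr8 iKO and 4 and 0 in Dicer iKO nerves. In that order the shares of all genes higher were 15.3, 14.6, 13.4 and 7.37%, and the shares lower were 21.1, 13.6, 6.99 and 1.64%, so the 3 lower genes against uncrushed nerves lay near the share of all genes. In the order in which the counts were given, the list's medians on the log2 scale were 1.05, 1.24, 1.14 and 0.76. Postn, which encodes the matrix protein periostin, had the largest values: 6.46 (SE 0.28, adjusted p = 2.87e-07) in Dgcr8 iKO, 3.06 (SE 0.61, adjusted p = 0.0135) in Dicer iKO, and 3.71 and 4.18 after crush. Fn1, the fibronectin gene, rose in all 4 (2.69, 2.65, 1.93 and 2.31). Tgfbi rose after crush (3.41 and 3.40) and in Dgcr8 iKO nerves (1.93). The cell cycle inhibitor gene Cdkn1a fell in crushed nerves (-3.06 and -3.27), and Tagln, a smooth muscle gene, fell in crushed (-1.89 and -2.04) and Dgcr8 iKO nerves (-1.61). Col1a1 rose in the mutants (1.80 in Dicer iKO and 1.5 in Dgcr8 iKO) and not after crush (-0.45 and -0.42). The summed level of 6 fibroblast markers was 13392 to 14694 CPM in Dicer iKO nerves against 2990 to 7878 CPM in controls, and 11350 to 12822 CPM in Dgcr8 iKO nerves against 4508 to 6221 CPM. It was 2054 to 2457 CPM in crushed nerves against 2883 to 3562 CPM in uninjured nerves. Of the 6 markers, 2 were called higher in Dicer iKO and 4 in Dgcr8 iKO nerves, with 0 lower in each. Over all genes 7.37% and 13.4% were higher there, and 1.64% and 6.99% lower. After crush the markers were mixed against each control: 1 was called higher (Pi16, 1.46 and 1.75). Another 2 were called lower (Clec3b, -4.57 and -3.72, and Col1a2, -1.05 and -1.13). The 1 higher of 6 lay near the share of all genes, 15.3% and 14.6%. The shares of all genes lower were 21.1% and 13.6%. The part of fibroblasts in the list values was not tested.

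Of 13 genes of the related BMP branch, 12 were tested in the crush comparisons, of which 2 were higher and 4 lower with uncrushed controls and 2 higher and 2 lower with contralateral controls. Over all genes 15.3% were higher and 21.1% lower with the first controls and 14.6% and 13.6% with the second. The counts were 2 and 1 of 11 in Dicer iKO nerves, where 7.37% and 1.64% of all genes were higher and lower, and 2 and 2 of 11 in Dgcr8 iKO nerves, where 13.4% and 6.99% were. Id2, a helix-loop-helix inhibitor, rose in all 4 (2.64, 2.48, 2.65 and 3.21). Bmp7, a BMP ligand, fell in crushed nerves (-1.47 and -1.93) and in Dgcr8 iKO nerves (-1.22), and Id1 fell in Dgcr8 iKO nerves (-1.10).

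Transcript shares of expected counts showed which isoforms carried the gene values. Tgfb3, Fst and Inhbb were carried by 1 listed transcript each, and ENSMUST00000002678 held 92 to 98% of Tgfb1 on average in every group. For Tgfbr1, ENSMUST00000007757, the transcript with the printed sites, held 90.9% ± 4.43 in Dicer control, 90.3% ± 0.312 in Dicer iKO, 84.5% ± 7.4 in Dgcr8 control and 89.9% ± 1.46 in Dgcr8 iKO nerves. In the crush experiment it held 67.9 to 72.3% on average and the short ENSMUST00000107725 24.9 to 26.2%, with no more difference between crushed and uninjured nerves than between replicates. Tgfbr2 was split between ENSMUST00000035014 (50.3 to 70.7%) and ENSMUST00000061101, and the first held 69.2% ± 9.15 in Dicer control and 70.7% ± 5.73 in Dicer iKO nerves, which overlapped. It held 56.9 to 63.9% (61.1% ± 3.69) in Dgcr8 control and 65.4 to 67.6% (66.3% ± 1.19) in Dgcr8 iKO nerves, which did not overlap. These shares are RSEM estimates, and differences between the experiments cannot be told apart from their library kits and transcript lists.

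The genes whose level went most like that of a member were sought by the lower of 2 Pearson's r values of log2(CPM + 1), 1 over the 11 crush libraries and 1 over the 12 iKO libraries, which share their group structure. Among 11908 genes, Tgfb1 was most like Myo5a (lower r 0.98) and Dgkz (0.979), and 1284 genes reached 0.8. Tgfbr1 was most like Osbpl8 (0.971), with 1493 genes at 0.8. For Tgfb3 they were Tcf20 (0.932), Ankrd40 (0.929) and Rrm2b (0.929), for Tgfbr3 Epha2 (0.954), Celsr2 (0.89) and Fat1 (0.887), and for Smad7 Gab2 (0.94), Eif1a (0.937) and Ier5l (0.935). Fst went with Emid1 (0.896), Kcnh8 (0.881) and Gjc3 (0.876), and 16 genes reached 0.8, while Inhbb went with F2r (0.864), Svep1 (0.862) and Acer3 (0.856). Tgfb2 and Tgfbr2 each had 1 gene at 0.8, Gm2a (0.816) and Susd6 (0.807).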

How the data were processed

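Libraries of total RNA were made with a SMARTer pico-input kit (crush) or TruSeq Stranded with Ribo-Zero (iKO) per the labels, while the study's methods describe TruSeq for all. The authors trimmed reads (Trimmomatic), aligned them to GRCm38 with STAR and quantified Ensembl transcripts with RSEM. The expected counts, TPM and FPKM values that the authors deposited are per transcript. For every test the transcripts' expected counts were added up within a gene, then rounded; TPM served for shares within a library and FPKM, divided by the TMM factor, for levels per length. In crush libraries a 5S rRNA-like transcript took 61.4 to 71.8% of TPM, so TPM was not compared between libraries.

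Tests used R 4.3.3 and edgeR 4.0.16 (filterByExpr with a minimum count of 10, TMM, quasi-likelihood test, Benjamini-Hochberg adjustment over all genes tested), fitted on the 2 groups compared, or on the 12 iKO libraries for the difference between mutants. The SE of a fold change was taken from its size on the log2 scale and the root of its F statistic. The test was checked on simulated data. Alternatives were RLE normalization, other filters, a replicate block, DESeq2 1.42.0, edgeR's exact test, 1 fit per experiment, the adjusted p alone and leaving out each library. Replicates were compared over 27 pairs, and none was a copy of another (chi-square per degree of freedom 4.36 to 42.4). One uncrushed library is replicate 3 by title and 4 by description, and the title was used.

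The 10 genes and all lists were chosen with earlier results of these data known. Named were the members, up to 4 called genes per list and comparison with the largest change and a mean log2 CPM of at least 1, transcripts with at least 10% of a member in a group, and the 3 genes most like a member where r was at least 0.8. Itgav, Itgb8, Smad2, Tagln and some values given for uncalled comparisons fall outside this rule and were chosen after their values were seen. Some genes that this rule names are not reported here. The deposited posterior estimates were not used.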

Additional observations from a re-analysis of the deposited data

How the results depend on the processing

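No result changed direction under any alternative and still passed its test. Among counts of genes, 210 alternative values stayed within 1.5 times and 46 did not. Among single genes and shares, 834 kept their side of the limits, 24 passed them newly and 13 no longer did. The number of the 10 genes lower in crushed against uncrushed nerves was 2 in place of 1 with RLE normalization, DESeq2, edgeR's exact test or all groups in 1 fit, since Tgfb3 then passed 2-fold, 3 by the adjusted p alone, and 1 to 2 with 1 library left out. Against contralateral nerves it was 1 in place of 3 without a filter on counts and 1 to 3 with 1 library left out (1 without contralateral replicate 2). In Dicer iKO nerves 1 gene was lower by the adjusted p alone. The adjusted p alone called 11712 and 11069 genes in the crush comparisons, 2764 in Dicer iKO and 5898 in Dgcr8 iKO nerves. Genes called between contralateral and uncrushed nerves numbered 141 without a filter, 31 by DESeq2, 163 by the exact test, 1 with all groups in 1 fit and 0 to 95 with 1 library left out (95 without uncrushed replicate 2). Dicer iKO nerves had 572 to 1411 genes called with 1 library left out (572 without Dicer iKO replicate 3). The difference between mutants called 1 gene with RLE, 20 without a filter, 0 with at least 10 counts in every sample, 240 by DESeq2 and 0 to 401 with 1 library left out. The cause was not tested. Omitting the filter shifted the median of all genes by 0.23 and 0.16 on the log2 scale in the crush comparisons, a minimum of 10 counts by -0.12 and 1 fit by -0.10 against uncrushed nerves. Against contralateral nerves without the filter, Tgfb3 was at -0.85 and Tgfbr3 at -0.90.

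Same-numbered samples did not deviate together on average (mean correlation of deviations from -0.0598 to 0.0527 over 5 comparisons), so numbers were not taken to pair samples. The highest mean, 0.0527, was that of crushed and contralateral nerves, against -0.0176 for their other pairs. It was -0.0942, 0.14, -0.0121 and 0.177 for replicates 1 to 4, so pairing by number was not excluded there. Crushed and contralateral nerves share mice, and with the number as a block 4 of the 10 genes were called higher and 3 lower there, as without it. With the replicate number as a block, 2 of the 10 genes were lower against uncrushed nerves, 6 genes differed between contralateral and uncrushed nerves, 640 were called in Dicer iKO nerves and 0 between the mutants, and Fst in Dicer iKO nerves lost its call (adjusted p = 0.0777, edgeR).

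Depth limits Inhba, Inhbb and crushed Fst most, with 1 to 44 counts per library.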
